A study of Mus musculus with 6 samples.

Results

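Satellite cells (SCs) sorted from dystrophic muscle after depletion of macrophages (MΦs) were compared with SCs from muscle in which MΦs were left in place. The members were all genes whose highest value in the 4 SC libraries exceeded 0.25 RPKM (reads of a gene relative to its length and to the reads of the library), which held for 13255 of the 21671 genes in the table, and the 4 SC libraries were 4 of the 6 libraries of the series. The SCs DT group (2 libraries) came from dystrophic mice with the ITGAM-DTR transgene that received diphtheria toxin (DT), and the SCs CTRL group (2 libraries) came from mice of the same genotype that received PBS. Both groups therefore carried the mdx mutation of dystrophin, which models Duchenne muscular dystrophy, and the ITGAM-DTR transgene, which puts the toxin receptor under the promoter of the myeloid integrin Itgam. Injections into the hind limb muscles began at 10 weeks of age and were repeated every 4 days, cells were taken 15 days after the first one, and each library was made from the gastrocnemius muscles of 2 pooled mice. The cells were sorted as positive for α7-integrin and negative for Sca1 and for the lineage markers CD31, CD45 and Ter119. The remaining 2 libraries were α7Sca1 cells, which carry both α7-integrin and Sca1 and were sorted from the DT-injected mice. They entered the fit for its estimate of the spread, and their values are given beside a few genes only.

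SCs are the stem cells of skeletal muscle. They lie between the muscle fiber and its basal lamina, rest under Notch and calcitonin receptor signals, and after injury divide, switch on Myod1 and Myog, and fuse into fibers that build sarcomeres. MΦs of injured muscle clear debris, present antigen through MHC class II, and release cytokines and matrix-modifying factors that act on SCs and on the fibroadipogenic progenitors (FAPs) beside them.

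The sorted cells held the genes that define SCs in every library. Itga7, the integrin used for the sort, had 78.3 and 77.6 RPKM in SCs DT, against 75 and 77.6 RPKM in SCs CTRL. Myf5, the first myogenic factor of SCs, had 38.4 and 67.6 RPKM in SCs DT, against 50.5 and 58 RPKM in SCs CTRL. Cdh15, the cadherin that joins SCs to the fiber, had 48.2 and 48.3 RPKM in SCs DT, against 48.8 and 64.4 RPKM in SCs CTRL. The differences of these 3 markers, SCs DT minus SCs CTRL on the log2(RPKM + 1) scale, were 0.03, -0.08 and -0.21. Pax7, whose values are given below, was less abundant than these 3 and was lower in both SC DT libraries than in either SC CTRL library. At the same time, the summed RPKM of the 30 SC identity genes was 1264 and 1379 in SCs DT and 1269 and 1495 in SCs CTRL. This sum holds Des, which had 325 and 334 RPKM in SCs DT, against 203 and 304 RPKM in SCs CTRL. Most of the 30 genes were lower without overlap, as given below, so the sum does not show that they were unchanged. Markers of other cells were present too. The summed RPKM of 53 macrophage genes was 598.2 and 1061 in SCs DT and 1824 and 1105 in SCs CTRL, and that of 25 endothelial genes was 140.0 and 180.1 in SCs DT and 144.4 and 86.35 in SCs CTRL. That of 41 FAP and fibroblast genes was 916.9 and 1181 in SCs DT and 4697 and 1056 in SCs CTRL, and that of 5 red cell genes was 36.44 and 26.26 in SCs DT and 176.1 and 104.3 in SCs CTRL. Cd3e, which defines T cells, had 0.129 and 0.0498 RPKM in SCs DT, against 0.0491 and 0.155 RPKM in SCs CTRL. Plin1, which coats the lipid droplets of adipocytes, had 0.236 and 0.196 RPKM in SCs DT, against 0.00289 and 0 RPKM in SCs CTRL, so neither reached 0.25 RPKM in the SC libraries. Other adipocyte genes were more abundant than Plin1. Adipoq had 5.82 and 23.9 RPKM in SCs DT, against 0.184 and 0.329 RPKM in SCs CTRL, and Pparg, given below, was above 0.25 RPKM in each SC library. SC CTRL replicate 1 stood apart through its tendon and matrix genes, and SC DT replicate 2 had more RPKM of adipocyte genes than SC DT replicate 1. The part of these other cells in the results was not tested. A bulk library cannot tell fewer cells of a type from less RNA per cell.

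The deposited RPKM of the libraries had been brought to one distribution, with 9140 genes of at least 1 RPKM in each SC library, so depth is unknown and a shift shared by most genes would not be visible. Across the 13255 genes the median difference, SCs DT minus SCs CTRL on the log2(RPKM + 1) scale, was -0.01, and the values from the 5% to the 95% quantile ran between -0.52 and 0.56. In limma, with Benjamini-Hochberg adjustment over the 13934 genes above 0.25 RPKM in any of the 6 libraries, 62 genes passed an adjusted p of 0.05. Of these, 49 were higher in SCs DT (0.37% of the genes) and 13 were lower (0.0981%), and at an unadjusted p under 0.05 the counts were 732 and 716. With 2 libraries against 2, an exact permutation test of a single gene gives no p below 0.333, so each call rests on the spread that limma shares between genes and groups. Without SC DT replicate 2 or without SC CTRL replicate 1 no gene passed, and 1 gene passed in the 4 SC libraries alone, Saa3, or 59 when genes below 0.25 RPKM in those 4 were left out. All 62 genes kept their direction in each of these fits.

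Each gene was therefore also described by overlap, that is, whether both SC DT libraries lay on one side of both SC CTRL libraries. No overlap was found for 2883 genes on the higher side (21.8%) and 3401 on the lower side (25.7%), and no overlap together with a difference of at least 1 on the log2 scale for 212 higher genes (1.6%) and 123 lower genes (0.928%). The 62 genes that passed the test were all among those without overlap. Counts over the gene lists that follow are descriptions to be read against these shares. With 1 of the 4 SC libraries left out, 31.4% to 37.6% of all genes were without overlap on the higher side and 36.7% to 41.2% on the lower side.

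**Figure D1:**
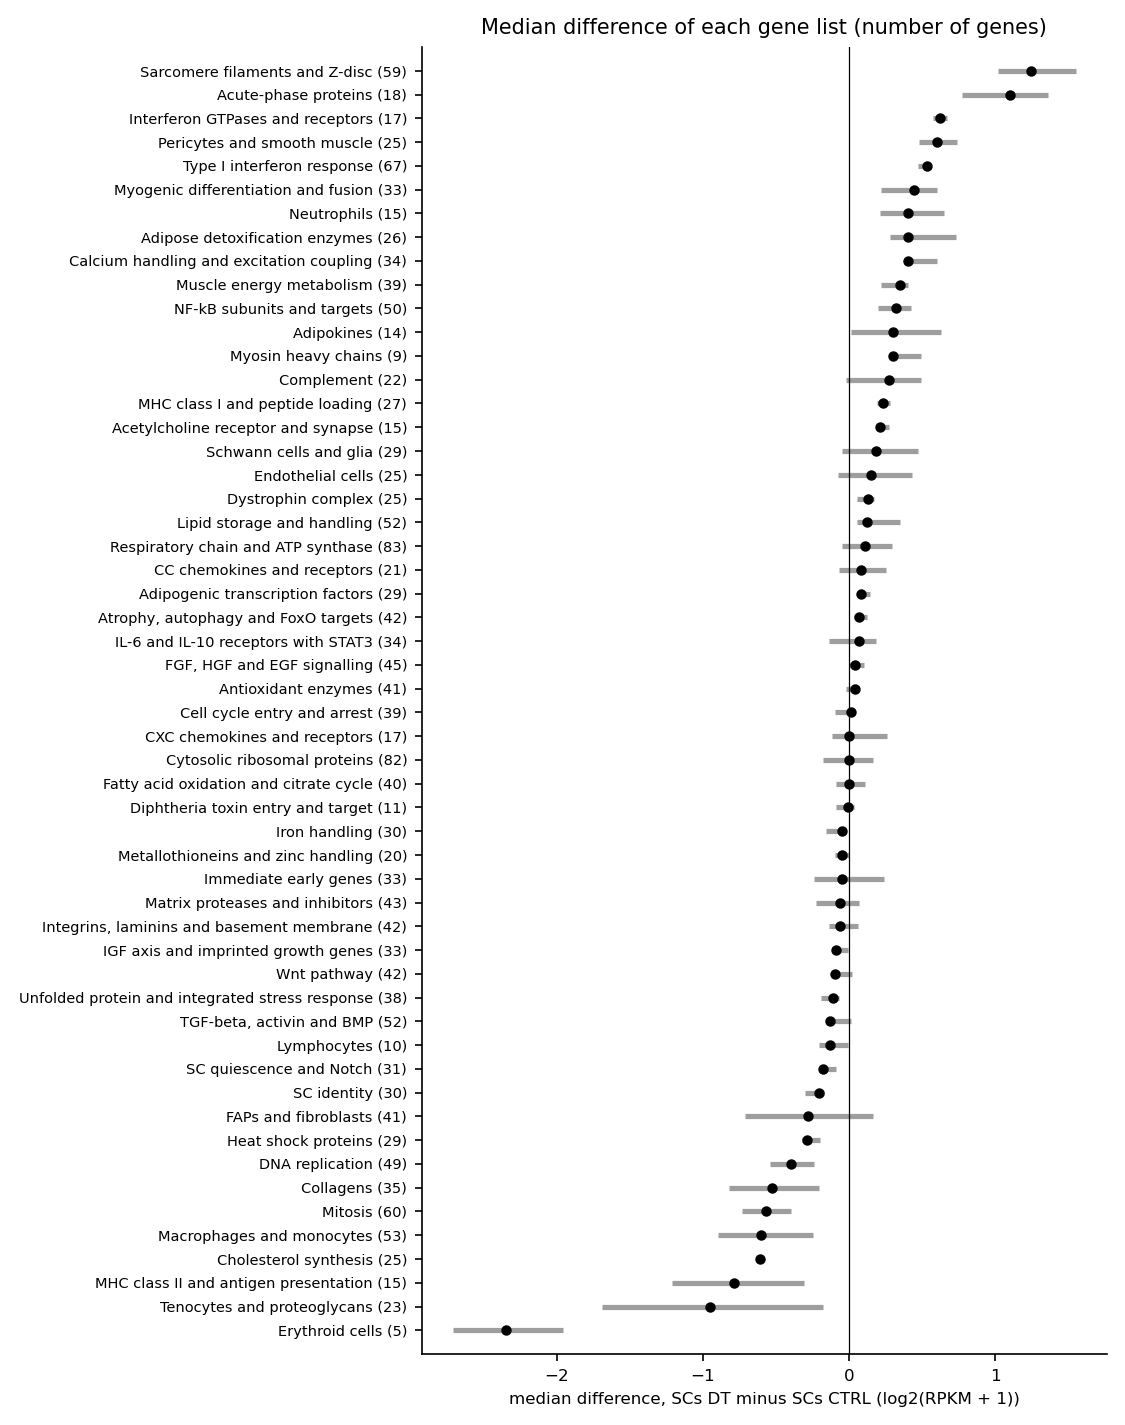
Median difference of each of 54 gene lists, SCs DT minus SCs CTRL on the log2(RPKM + 1) scale, with the number of genes in parentheses. Points are the medians over all 4 SC libraries and bars span the medians with each SC library left out in turn. Sarcomere genes (1.24) and acute-phase genes (1.10) lie highest and red cell genes (-2.35) lowest, and the bar of the FAP and fibroblast list crosses 0.

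Genes of the contractile apparatus gave the largest group of increases. Of 59 genes of sarcomere filaments and the Z-disc, 15 rose and 0 fell in limma, 55 were higher without overlap, and the list's median difference was 1.24. Tcap, the titin cap of the Z-disc, had 28.3 and 56.2 RPKM in SCs DT, against 2.94 and 3.3 RPKM in SCs CTRL (log2 difference 3.31, SE 0.32, adjusted p = 0.0089 from limma). Myoz1, which links calcineurin to the Z-disc of fast fibers, had 10.9 and 14.5 RPKM in SCs DT, against 0.595 and 1.12 RPKM in SCs CTRL (difference 2.89, SE 0.22, adjusted p = 0.00608). Myot, another Z-disc protein, had 5.38 and 9.29 RPKM in SCs DT, against 0.040 and 0.382 RPKM in SCs CTRL (difference 2.76, SE 0.26, adjusted p = 0.0089). Each of these was at least 8 times as high in the lower SC DT library as in the higher SC CTRL library. The troponins of fast fibers lay the same way, and 2 of the 3 named here rose. Tnnc2, the calcium-binding subunit, had 154 and 173 RPKM in SCs DT, against 15.8 and 34 RPKM in SCs CTRL (difference 2.76, SE 0.35, adjusted p = 0.0286). Tnni2, the inhibitory subunit, had 105 and 136 RPKM in SCs DT, against 12.7 and 28.7 RPKM in SCs CTRL (difference 2.58, SE 0.37, adjusted p = 0.0423). Tnnt3, the subunit that binds tropomyosin, had 76.4 and 112 RPKM in SCs DT, against 9.23 and 21.2 RPKM in SCs CTRL and lay just outside the threshold (difference 2.63, SE 0.39, adjusted p = 0.0503). Its groups did not overlap. Acta1, the skeletal muscle actin and the most abundant transcript of the list, did not pass either although its groups did not overlap, with 631 and 1131 RPKM in SCs DT, against 108 and 197 RPKM in SCs CTRL (difference 2.53, SE 0.41, adjusted p = 0.0622).

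The light chain Myl1 rose with 191 and 216 RPKM in SCs DT, against 22.8 and 48 RPKM in SCs CTRL (difference 2.58, SE 0.34, adjusted p = 0.0366). Actn2, the α-actinin of the Z-disc, rose at a lower level, with 9.46 and 12.6 RPKM in SCs DT, against 1.49 and 2.09 RPKM in SCs CTRL (difference 2.11, SE 0.22, adjusted p = 0.013). Mybph, a myosin-binding protein, rose with 24 and 29.4 RPKM in SCs DT, against 4.5 and 8.09 RPKM in SCs CTRL (difference 1.96, SE 0.27, adjusted p = 0.0409). Mybpc2, Tmod4, Myl2, Smpx, Ankrd23 and Trim54 rose as well, all under 11 RPKM in every library, and Trim63 completed the 15. Trim63, the ubiquitin ligase MuRF1 of muscle wasting, had 6.48 and 10.7 RPKM in SCs DT, against 0.422 and 1.24 RPKM in SCs CTRL (difference 2.39, SE 0.30, adjusted p = 0.0286). Fbxo32, the other ligase of muscle atrophy, had 12.6 and 15 RPKM in SCs DT, against 10.1 and 13.6 RPKM in SCs CTRL and overlapped between groups (adjusted p = 0.863). In SCs CTRL, replicate 2 had the higher RPKM of all 15. With one SC library left out at a time, 55 or 56 of the 59 genes were higher without overlap, and the medians were 1.02 to 1.55.

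Muscle genes are driven by the MEF2 and Myod1 families of factors. Promoter windows of 250 bases before to 50 bases after each start were read from RefSeq for GRCm38.p6, and each motif was searched on both strands. The MEF2 site was in 6 of 55 windows of 45 matched sarcomere genes (10.9%), against 3.19% of all 32851 windows. The E-box CAGCTG, a site of the Myod1 family that reads the same on both strands, was in 22 of the 55 (40%), against 16.3%. Trim63 and Mybph, which both rose, are shown with the 150 bases before the start, 5′ to 3′ in the direction of transcription, and the E-box in capitals.
Trim63 (chr4:134314970-134315119, plus strand): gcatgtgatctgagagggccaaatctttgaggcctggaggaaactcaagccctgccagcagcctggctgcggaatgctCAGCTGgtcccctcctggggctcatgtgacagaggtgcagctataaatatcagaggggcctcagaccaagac
Mybph (chr1:134193298-134193447, plus strand): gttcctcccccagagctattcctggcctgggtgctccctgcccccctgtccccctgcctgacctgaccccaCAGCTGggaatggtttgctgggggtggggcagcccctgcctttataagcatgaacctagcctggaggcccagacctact
The box began 72 bases before the start in Trim63 and 79 in Mybph. A match is a description of the letters and not evidence of a factor.

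Of 9 myosin heavy chains, which are motor proteins, 2 rose and 0 fell. The list also held Myh9, Myh10, Myh11 and Myh14, which are smooth muscle or nonmuscle forms and do not mark fiber type. Myh4, of the fastest fibers, had 7.82 and 10.8 RPKM in SCs DT, against 0.448 and 0.661 RPKM in SCs CTRL (difference 2.72, SE 0.22, adjusted p = 0.00659). Myh1, of fast fibers, had 9.04 and 14.8 RPKM in SCs DT, against 1.06 and 2.45 RPKM in SCs CTRL (difference 2.24, SE 0.31, adjusted p = 0.0423). The chains of developing and regenerating fibers did not pass. The embryonic chain Myh3 had 9.97 and 18.3 RPKM in SCs DT, against 2.71 and 8.18 RPKM in SCs CTRL (adjusted p = 0.357). The perinatal chain Myh8 had 0.973 and 1.36 RPKM in SCs DT, against 0.347 and 0.457 RPKM in SCs CTRL, also without overlap but short of the threshold (adjusted p = 0.132). Myh7, of slow fibers, had 0.14 and 0.303 RPKM in SCs DT, against 0.0529 and 0.0587 RPKM in SCs CTRL (adjusted p = 0.54), and Myh2 did not reach 0.25 RPKM.

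Genes that couple excitation to calcium release rose in 6 of 34 cases and fell in 0. Sln, the peptide that slows the sarcoplasmic calcium pump (chr9:53698058-53701651 in mm9), had 74.1 and 129 RPKM in SCs DT, against 3.74 and 4.71 RPKM in SCs CTRL (difference 4.25, SE 0.32, adjusted p = 0.00608). Atp2a1, that pump of fast fibers, had 85.1 and 126 RPKM in SCs DT, against 19.2 and 25.1 RPKM in SCs CTRL (difference 2.19, SE 0.26, adjusted p = 0.0236). Casq1, which stores calcium in the reticulum, had 14.5 and 17.3 RPKM in SCs DT, against 2.11 and 3.7 RPKM in SCs CTRL (difference 2.14, SE 0.29, adjusted p = 0.0367). SC DT replicate 2 was the higher SC DT library for these 3 genes. Pvalb, the calcium buffer of fast fibers, was higher in SC DT replicate 1, with 20.0 and 14.7 RPKM in SCs DT, against 2.39 and 3.37 RPKM in SCs CTRL (difference 2.24, SE 0.22, adjusted p = 0.0101). The release channel Ryr1 had 1.07 and 0.901 RPKM in SCs DT, against 0.229 and 0.42 RPKM in SCs CTRL and did not pass (adjusted p = 0.119). Art1 (1.54) and Cacna1s, the voltage sensor (0.99), were the remaining increases on the log2 scale.

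Muscle energy genes followed in part. Ckm, the creatine kinase of muscle, had 64.6 and 81.4 RPKM in SCs DT, against 5.05 and 9.14 RPKM in SCs CTRL (difference 3.23, SE 0.31, adjusted p = 0.0089). Mb, the oxygen store myoglobin, had 21.1 and 30.3 RPKM in SCs DT, against 2.16 and 3.85 RPKM in SCs CTRL (difference 2.75, SE 0.28, adjusted p = 0.0107). Pgam2, the muscle form of a glycolytic mutase, had 21.8 and 24.9 RPKM in SCs DT, against 2.31 and 4.03 RPKM in SCs CTRL (difference 2.57, SE 0.25, adjusted p = 0.0089). With Ckmt2 they were the 4 of 39 energy genes that rose. The enolase Eno3, which proliferating myoblasts already express, had 113 and 117 RPKM in SCs DT, against 73.3 and 111 RPKM in SCs CTRL and did not pass (adjusted p = 0.87). Of 83 genes of the respiratory chain only Cox6a2, the heart and muscle form of its subunit, rose (11.8 and 18.2 RPKM in SCs DT, against 0.934 and 1.87 RPKM in SCs CTRL, difference 2.73, SE 0.27, adjusted p = 0.00983), and the whole list had a median of 0.11 that turned to -0.05 without SC CTRL replicate 1. Cox8b, another subunit restricted to muscle and brown fat, had 10.1 and 13.4 RPKM in SCs DT, against 2.38 and 1.82 RPKM in SCs CTRL (adjusted p = 0.0508).

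**Figure D2:**
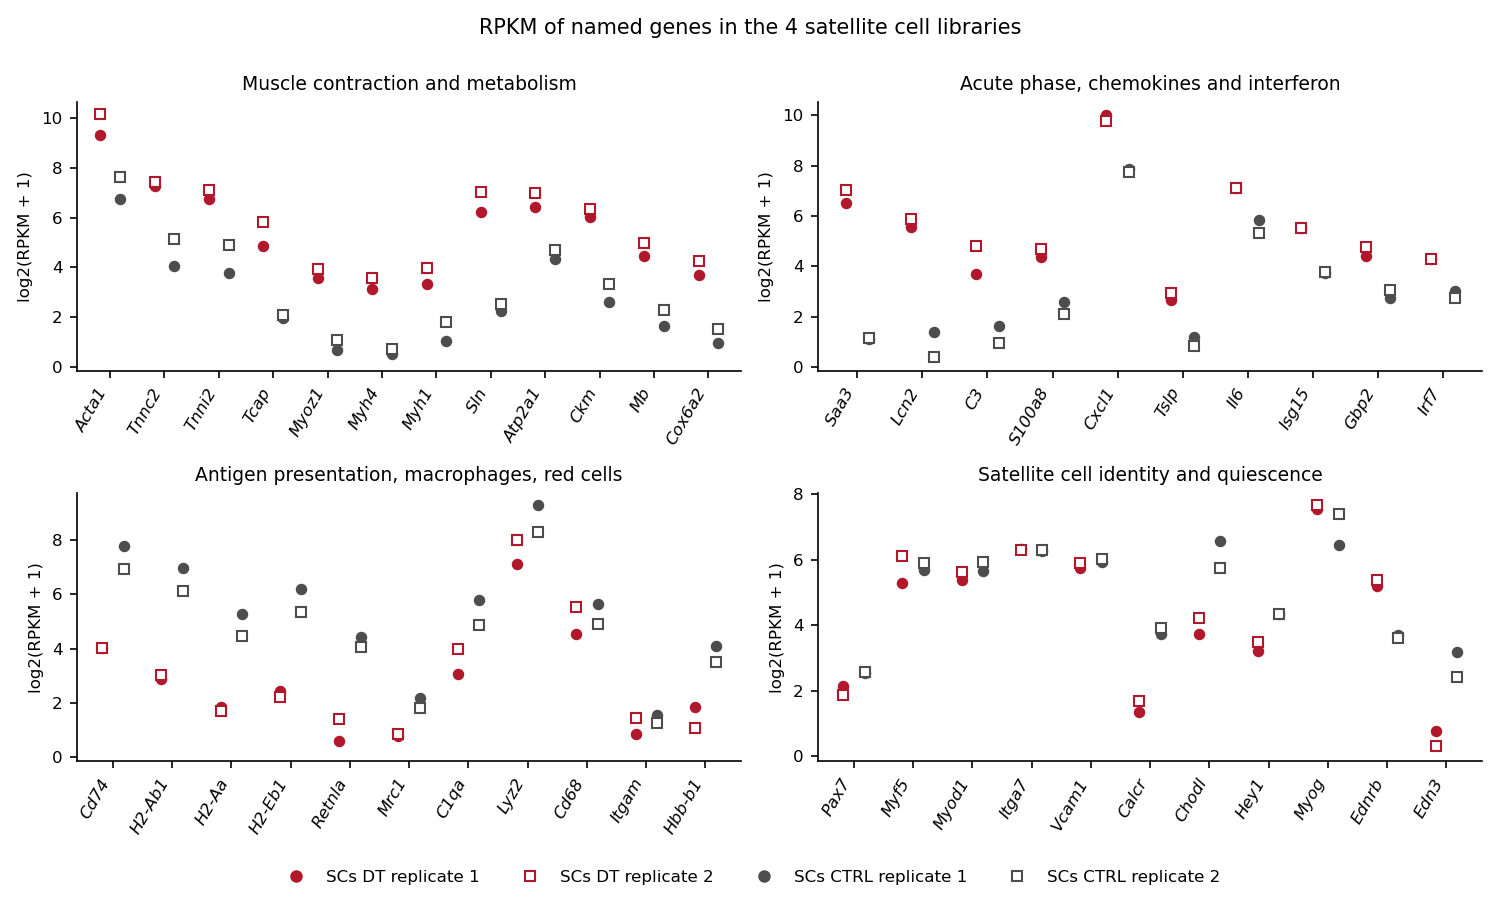
Log2(RPKM + 1) of 44 genes in the 4 SC libraries, with SCs DT in red on the left of each gene and SCs CTRL in grey on the right; circles are replicate 1 and squares replicate 2, and a point can lie under another. Contractile, acute-phase and interferon genes lie higher in SCs DT, MHC class II genes lower, and Itga7, Myf5, Cd68 and Itgam overlap.

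Fewer genes of the myogenic program between the stem cell and the fiber passed. Of 33 differentiation and fusion genes, 2 rose, 0 fell and 21 were higher without overlap, with a median of 0.44 (0.22 without SC CTRL replicate 1). Cav3, the caveolin of the muscle membrane, had 15.4 and 17.4 RPKM in SCs DT, against 3.96 and 5.49 RPKM in SCs CTRL (difference 1.61, SE 0.21, adjusted p = 0.0299). Itgb1bp2, the chaperone melusin, had 9.48 and 12.6 RPKM in SCs DT, against 1.53 and 2.73 RPKM in SCs CTRL (difference 1.96, SE 0.25, adjusted p = 0.0285). The genes of fusion and myosin folding did not pass. Tmem8c, which encodes the fusion protein myomaker, had 69 and 94.2 RPKM in SCs DT, against 21.1 and 39.4 RPKM in SCs CTRL (difference 1.45, SE 0.34, adjusted p = 0.168). Unc45b, a chaperone of myosin folding, had 6.79 and 9.36 RPKM in SCs DT, against 2.23 and 3.87 RPKM in SCs CTRL (adjusted p = 0.131). The groups did not overlap for any of these 4 genes. The subunits of the acetylcholine receptor were divided, with 3 higher and 1 lower without overlap. Chrng, the fetal subunit, had 13.6 and 15.4 RPKM in SCs DT, against 5.04 and 8.32 RPKM in SCs CTRL (adjusted p = 0.294). Chrnd had 11.6 and 13.3 RPKM in SCs DT, against 5.88 and 7.91 RPKM in SCs CTRL (adjusted p = 0.249). Chrnb1 had 21.8 and 27.3 RPKM in SCs DT, against 30.6 and 31.2 RPKM in SCs CTRL (adjusted p = 0.726). It was the subunit that was lower without overlap, and Musk was lower too. Musk, the kinase that clusters the receptor, had 16.2 and 21.1 RPKM in SCs DT, against 21.8 and 25.5 RPKM in SCs CTRL (adjusted p = 0.774). None of the 15 synapse genes passed. Of 25 genes of the dystrophin complex 1 rose, Cav3, which both lists hold. Dmd itself, which carries the mdx mutation in both groups, had 1.34 and 1.12 RPKM in SCs DT, against 1.15 and 1.01 RPKM in SCs CTRL (adjusted p = 0.917). Its homologue Utrn had 5.91 and 3.97 RPKM in SCs DT, against 3.25 and 3.11 RPKM in SCs CTRL (adjusted p = 0.482).

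Among 31 genes of SC quiescence and the Notch pathway, 1 fell and 0 rose. This was Calcr, the calcitonin receptor that holds SCs in quiescence (chr6:3635677-3714713 in mm9), with 1.56 and 2.21 RPKM in SCs DT, against 12.2 and 13.9 RPKM in SCs CTRL (difference -2.29, SE 0.19, adjusted p = 0.00722). Chodl, the lectin chondrolectin, had 12.3 and 17.7 RPKM in SCs DT, against 94.2 and 52.6 RPKM in SCs CTRL and missed the threshold (difference -2.18, SE 0.36, adjusted p = 0.0685). Hey1, a Notch target needed to keep SCs, had 8.2 and 10.3 RPKM in SCs DT, against 19.2 and 19.3 RPKM in SCs CTRL (difference -0.99, SE 0.22, adjusted p = 0.135). Both were lower in each SC DT library than in either SC CTRL library. Nrarp and Hes1, which are also Notch targets, lay the other way, with SC DT replicate 1 the highest library for both. Nrarp had 13.9 and 3.83 RPKM in SCs DT, against 3.15 and 2.77 RPKM in SCs CTRL (adjusted p = 0.47). Hes1 had 9.96 and 5.17 RPKM in SCs DT, against 3.69 and 3.04 RPKM in SCs CTRL (adjusted p = 0.559). Spry1 and Gas6 were lower without overlap. Spry1, which restrains growth factor signals in resting SCs, had 8.73 and 10.7 RPKM in SCs DT, against 17 and 15.3 RPKM in SCs CTRL (adjusted p = 0.372). Gas6, a ligand of TAM receptors, had 15.9 and 18.8 RPKM in SCs DT, against 32.1 and 23.9 RPKM in SCs CTRL (adjusted p = 0.426).

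No gene of the SC identity list passed, and 18 of 30 were lower without overlap against 2 that were higher, with a median of -0.21. The 4 lowest differences of the list were those of Chrdl2, Cd34, Cxcr4 and Megf10. Chrdl2, a BMP antagonist, had 4.8 and 1.06 RPKM in SCs DT, against 8.58 and 15.7 RPKM in SCs CTRL (adjusted p = 0.201). Cd34, a sialomucin of resting SCs, had 9.26 and 9.85 RPKM in SCs DT, against 21.4 and 14.8 RPKM in SCs CTRL (adjusted p = 0.449). Cxcr4, the receptor of Cxcl12, had 8.13 and 10.9 RPKM in SCs DT, against 12.7 and 18 RPKM in SCs CTRL (adjusted p = 0.435). In each of these both SC DT libraries lay below both SC CTRL libraries. Megf10, a receptor that favors SC division, had 3.99 and 5.87 RPKM in SCs DT, against 7.7 and 8.38 RPKM in SCs CTRL (adjusted p = 0.371). The groups of Megf10 did not overlap either. Pax7, the factor that defines SCs, had 3.45 and 2.67 RPKM in SCs DT, against 4.87 and 5.01 RPKM in SCs CTRL (difference -0.55, SE 0.18, adjusted p = 0.317). Myod1, the factor that commits SCs to myogenesis, had 40.4 and 47.7 RPKM in SCs DT, against 49.5 and 59.8 RPKM in SCs CTRL (difference -0.30, SE 0.25, adjusted p = 0.771). The 2 that were higher without overlap were Des and Peg3.

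Genes of cell division were lower in SCs DT by small differences. Of 60 mitosis genes 0 passed the test, 57 were lower without overlap and 0 were higher, against 25.7% and 21.8% over all genes, and the median difference was -0.57. All 60 had a lower mean in SCs DT, from -1.03 for Ube2c to -0.03 for Mybl2, and Ttk, Mybl2 and Spc24 were the 3 that overlapped. Ube2c, which feeds mitotic proteins to destruction, had 20.7 and 15.9 RPKM in SCs DT, against 30.4 and 47.8 RPKM in SCs CTRL (difference -1.03, SE 0.29, adjusted p = 0.246). Cenpa, the histone of the centromere, had 9.41 and 9.74 RPKM in SCs DT, against 16.1 and 20.0 RPKM in SCs CTRL (difference -0.84, SE 0.19, adjusted p = 0.163). Plk1, a kinase of mitotic entry, had 3.48 and 3.89 RPKM in SCs DT, against 6.91 and 8.47 RPKM in SCs CTRL (difference -0.89, SE 0.24, adjusted p = 0.228). The SC DT libraries lay close together for Cenpa and Plk1. Top2a, which untangles chromosomes, had 5.61 and 5.19 RPKM in SCs DT, against 8.87 and 12.1 RPKM in SCs CTRL (difference -0.83, SE 0.21, adjusted p = 0.199). In SCs CTRL, replicate 2 held the higher value of each of these, and with each SC library left out the count without overlap was 57 to 60, the median -0.73 to -0.40.

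Of the DNA replication genes, 37 of 49 were lower and 0 higher without overlap, with a median of -0.40, or -0.24 without SC CTRL replicate 2. Rfc5, a subunit of the clamp loader, had 4.5 and 3.43 RPKM in SCs DT, against 6.45 and 9.75 RPKM in SCs CTRL (difference -0.86, SE 0.23, adjusted p = 0.239). Mcm3, of the replicative helicase, had 11.6 and 8.9 RPKM in SCs DT, against 15.5 and 19.4 RPKM in SCs CTRL (adjusted p = 0.301). Pcna, the clamp itself, had 64.2 and 65.3 RPKM in SCs DT, against 71.2 and 79.2 RPKM in SCs CTRL (adjusted p = 0.87). Of 39 regulators of cycle entry and arrest, 7 were higher and 11 lower without overlap, near the shares over all genes (21.8% and 25.7%). Their median was 0.01, or -0.10 without SC DT replicate 1. Ccne1, the cyclin of the G1 to S step, had 4.62 and 4.57 RPKM in SCs DT, against 7.42 and 8.62 RPKM in SCs CTRL (adjusted p = 0.244). Myc had 114.5 and 138 RPKM in SCs DT, against 186 and 170.1 RPKM in SCs CTRL (adjusted p = 0.569). The inhibitor Cdkn1a, or p21, had 257 and 299 RPKM in SCs DT, against 192 and 203 RPKM in SCs CTRL (adjusted p = 0.601).

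The CHR element, TTTGAA on either strand, is the promoter site through which the MuvB complexes time mitotic genes. It was found in 37 of 49 promoter windows of 47 matched mitosis genes (75.5%), against 17.9% of all windows. Ube2c, which had the lowest difference of the list, and Top2a are shown over the same 150 bases with the element in capitals.
Ube2c (chr2:164769779-164769928, plus strand): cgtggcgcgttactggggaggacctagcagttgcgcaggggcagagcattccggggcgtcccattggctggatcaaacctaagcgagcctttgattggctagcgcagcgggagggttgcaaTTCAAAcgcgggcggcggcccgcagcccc
Top2a (chr11:99024190-99024339, minus strand): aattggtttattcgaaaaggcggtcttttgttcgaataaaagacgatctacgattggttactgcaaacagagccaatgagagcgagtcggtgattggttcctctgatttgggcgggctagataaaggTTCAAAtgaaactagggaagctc
The element began 29 bases before the start in Ube2c and 23 in Top2a.

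**Figure D3:**
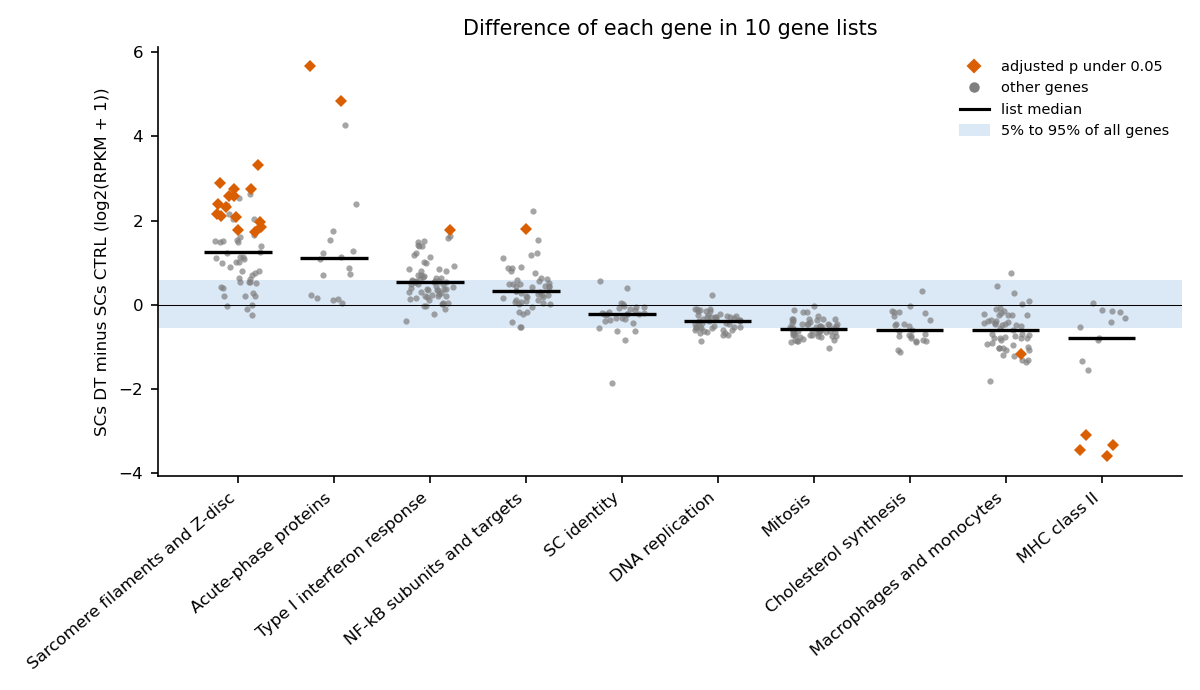
Difference of each gene in 10 gene lists, SCs DT minus SCs CTRL on the log2(RPKM + 1) scale. Diamonds passed an adjusted p of 0.05 in limma, black lines are list medians, and the band holds the genes between the 5% and 95% quantiles of all 13255 (-0.52 to 0.56). Sarcomere genes spread upward, with 15 past the test, and the 60 mitosis genes lie close together below 0 with none past it.

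Interferon-stimulated genes were higher in SCs DT in most of the list, and 1 of them passed. Of 67 genes of the type I interferon response, 1 rose, 0 fell, 55 were higher and 1 was lower without overlap, and the median was 0.53. Isg15, the ubiquitin-like modifier, had 44.6 and 45.3 RPKM in SCs DT, against 12.2 and 12.7 RPKM in SCs CTRL (difference 1.77, SE 0.25, adjusted p = 0.0425). Its libraries agreed within 1 RPKM of each other in each group. Ifit1, which binds foreign RNA, had 6.97 and 10.3 RPKM in SCs DT, against 2.43 and 1.92 RPKM in SCs CTRL (difference 1.58, SE 0.24, adjusted p = 0.0529). Irf7, the amplifier of the response, had 18.4 and 18.4 RPKM in SCs DT, against 7.21 and 5.62 RPKM in SCs CTRL (difference 1.40, SE 0.26, adjusted p = 0.0948). Usp18, its brake, had 7.0 and 6.15 RPKM in SCs DT, against 1.16 and 2.3 RPKM in SCs CTRL (adjusted p = 0.0891). None of these 3 passed, and their groups did not overlap. Ifi205, a member of the PYHIN family, had 8.46 and 13.9 RPKM in SCs DT, against 3.66 and 2.69 RPKM in SCs CTRL (adjusted p = 0.0827). Epsti1 was the 1 gene lower without overlap. With any one SC library left out 57 to 59 genes were higher without overlap and the median stayed between 0.47 and 0.51.

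A list of 17 genes held the GTPases that interferon-γ induces together with 4 interferon receptors. Of these 17 genes, 1 rose, 0 fell and 14 were higher without overlap, 2 receptors among them, and the median was 0.62. Gbp2, a guanylate-binding protein that attacks pathogen vacuoles, had 20.6 and 26.1 RPKM in SCs DT, against 5.72 and 7.4 RPKM in SCs CTRL (difference 1.69, SE 0.23, adjusted p = 0.0371). Gbp3 had 7.3 and 7.58 RPKM in SCs DT, against 2.71 and 2.82 RPKM in SCs CTRL (difference 1.16, SE 0.18, adjusted p = 0.0528). Ifi47 had 12.2 and 15.1 RPKM in SCs DT, against 4.89 and 4.32 RPKM in SCs CTRL (adjusted p = 0.0886). All 3 were higher in each SC DT library. Iigp1 had 12.7 and 19.6 RPKM in SCs DT, against 6.91 and 5.25 RPKM in SCs CTRL (adjusted p = 0.184). The receptor Ifngr1 overlapped, with 20.4 and 27.6 RPKM in SCs DT, against 23.3 and 19.3 RPKM in SCs CTRL. Genes of this family have close copies, so reads may be shared among them. MHC class I and its peptide loading had a median of 0.23 over 27 genes, none of which passed the test. The list was not uniform. Psmb9, Calr, Canx, Pdia3 and Cd1d1 were lower without overlap, whereas B2m, Psmb8 and H2-Q7 were among those higher without overlap. Calr had 171.5 and 149 RPKM in SCs DT, against 219 and 228 RPKM in SCs CTRL (adjusted p = 0.585). B2m, the light chain, had 319 and 383 RPKM in SCs DT, against 215 and 186 RPKM in SCs CTRL (adjusted p = 0.327). Psmb8, of the immunoproteasome, had 18.8 and 20.7 RPKM in SCs DT, against 12.2 and 10.8 RPKM in SCs CTRL (adjusted p = 0.254). H2-Q7 had 5.5 and 9.1 RPKM in SCs DT, against 2.83 and 2.23 RPKM in SCs CTRL (adjusted p = 0.132).

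The interferon-stimulated response element binds the STAT and IRF factors. Its core, searched as GAAA, any 2 bases and GAAA again on either strand, was in 22 of 59 promoter windows of 49 matched interferon response genes (37.3%) and in 8 of 14 windows of 13 matched genes of the GTPase and receptor list (57.1%), against 3.44% of all windows. The promoters of Isg15 and Gbp2, the gene of each list that rose, are shown as above with the core in capitals.
Isg15 (chr4:156200819-156200968, minus strand): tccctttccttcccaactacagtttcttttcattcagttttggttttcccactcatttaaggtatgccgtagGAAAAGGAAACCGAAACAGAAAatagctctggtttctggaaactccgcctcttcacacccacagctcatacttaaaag
Gbp2 (chr3:142620513-142620662, plus strand): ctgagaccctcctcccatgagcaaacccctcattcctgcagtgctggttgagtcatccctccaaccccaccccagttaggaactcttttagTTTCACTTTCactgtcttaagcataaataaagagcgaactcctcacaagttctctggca
In Isg15 the core occurred at 3 overlapping places, the first 78 bases before the start, and in Gbp2 it occurred once on the other strand, 59 bases before it.

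Acute-phase genes held the largest single increase. Saa3, an acute-phase apolipoprotein (chr7:53967368-53971046 in mm9), had 91.1 and 131 RPKM in SCs DT, against 1.14 and 1.22 RPKM in SCs CTRL (difference 5.66, SE 0.31, adjusted p = 0.00336), and it was at 1559 and 2505 RPKM in the α7Sca1 libraries. Lcn2, which binds bacterial siderophores, had 46.1 and 57.6 RPKM in SCs DT, against 1.61 and 0.307 RPKM in SCs CTRL (difference 4.83, SE 0.36, adjusted p = 0.00608), and 1131 and 875 RPKM in α7Sca1 cells. Hp, which binds free hemoglobin, differed more between its SC DT libraries, with 21.2 and 108 RPKM in SCs DT, against 1.57 and 1.5 RPKM in SCs CTRL (difference 4.28, SE 0.65, adjusted p = 0.0515). Of 18 acute-phase genes, 2 rose, 0 fell and 15 were higher without overlap, with a median of 1.10. Serpina3n, a serine protease inhibitor, had 16.4 and 29 RPKM in SCs DT, against 5.43 and 1.96 RPKM in SCs CTRL and did not pass (adjusted p = 0.0717). Cp, the ferroxidase ceruloplasmin, had 5.57 and 9.31 RPKM in SCs DT, against 3.49 and 2.17 RPKM in SCs CTRL and did not pass (adjusted p = 0.228). Of 22 complement genes 2 rose and 0 fell, and the median of 0.27 turned to -0.02 without SC CTRL replicate 2. C3, the central component, rose (11.9 and 27.1 RPKM in SCs DT, against 2.1 and 0.955 RPKM in SCs CTRL, difference 2.95, SE 0.40, adjusted p = 0.0371). Cfd, or adipsin, rose as well, with SC DT libraries that lay far apart (72 and 379 RPKM in SCs DT, against 4.04 and 4.13 RPKM in SCs CTRL, difference 5.03, SE 0.66, adjusted p = 0.0346). The chains of C1q, which MΦs make, lay the other way. C1qa had 7.34 and 14.8 RPKM in SCs DT, against 54.6 and 28.2 RPKM in SCs CTRL (adjusted p = 0.134). C1qb had 21.4 and 39.8 RPKM in SCs DT, against 89.9 and 51.5 RPKM in SCs CTRL (adjusted p = 0.297).

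Of the chemoattractants of neutrophils and monocytes 1 rose. Cxcl1 had 1048 and 875 RPKM in SCs DT, against 236 and 212 RPKM in SCs CTRL (difference 2.09, SE 0.30, adjusted p = 0.0423). Cxcl3 had 10.1 and 11.8 RPKM in SCs DT, against 4.62 and 3.67 RPKM in SCs CTRL (difference 1.22, SE 0.20, adjusted p = 0.0675). Cxcl5 had 8.34 and 11.5 RPKM in SCs DT, against 4.44 and 1.56 RPKM in SCs CTRL (adjusted p = 0.203). Cxcl1 was the most abundant of these in every library. Cxcl10, which interferons induce, had 77.5 and 71.9 RPKM in SCs DT, against 30.5 and 27.2 RPKM in SCs CTRL (difference 1.34, SE 0.25, adjusted p = 0.0943). Only Cxcl1 passed among 17 CXC genes, and none of 21 CC genes did. Ccl2, the monocyte attractant, had 162 and 155 RPKM in SCs DT, against 54.5 and 25.6 RPKM in SCs CTRL (difference 2.05, SE 0.54, adjusted p = 0.218). Ccl7 had 55.1 and 74.7 RPKM in SCs DT, against 26 and 16.4 RPKM in SCs CTRL (difference 1.59, SE 0.33, adjusted p = 0.118). Ccl11, the eosinophil attractant, had 52.2 and 61.2 RPKM in SCs DT, against 34.4 and 22.4 RPKM in SCs CTRL (adjusted p = 0.297). Neither chemokine list had a median away from 0 that kept its sign when each library was left out.

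NF-kB genes were higher in 26 of 50 cases and lower in 3 without overlap, with a median of 0.32 that was 0.20 without SC CTRL replicate 2 and 0.42 without SC CTRL replicate 1. Tslp, an alarmin of epithelia, was the 1 that rose (5.33 and 6.77 RPKM in SCs DT, against 1.25 and 0.775 RPKM in SCs CTRL, difference 1.81, SE 0.20, adjusted p = 0.016). Il6 had 137 and 139.6 RPKM in SCs DT, against 56 and 39.4 RPKM in SCs CTRL (difference 1.54, SE 0.31, adjusted p = 0.112). Csf3, the growth factor of neutrophils, had 7.61 and 18.2 RPKM in SCs DT, against 1.88 and 1.65 RPKM in SCs CTRL (difference 2.22, SE 0.38, adjusted p = 0.0717). Both lay above the SC CTRL libraries in each SC DT library. Tnfaip3, the feedback inhibitor A20, had 37.5 and 22.2 RPKM in SCs DT, against 11.3 and 12.4 RPKM in SCs CTRL (adjusted p = 0.173). The inhibitor Nfkbia was abundant throughout, with 599 and 605 RPKM in SCs DT, against 432 and 418 RPKM in SCs CTRL (adjusted p = 0.597). The groups did not overlap for any of these 5 genes. For the receptors and transducers of IL-6 and IL-10 the median was 0.07 and turned to -0.14 without SC CTRL replicate 2. Il10 had 1.93 and 1.73 RPKM in SCs DT, against 2.96 and 2.33 RPKM in SCs CTRL (adjusted p = 0.685). Osmr, the oncostatin M receptor, had 29.4 and 28.6 RPKM in SCs DT, against 15 and 16 RPKM in SCs CTRL (adjusted p = 0.218). Clcf1, a ligand of the same family, had 6.53 and 10.5 RPKM in SCs DT, against 18.1 and 16.6 RPKM in SCs CTRL (adjusted p = 0.276).

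The NF-kB site was in 19 of 49 promoter windows of 39 matched genes of the list (38.8%) and in 8.46% of all windows. The promoter of Il6 is shown with its site in capitals, which began 44 bases before the start.
Il6 (chr5:30012964-30013113, plus strand): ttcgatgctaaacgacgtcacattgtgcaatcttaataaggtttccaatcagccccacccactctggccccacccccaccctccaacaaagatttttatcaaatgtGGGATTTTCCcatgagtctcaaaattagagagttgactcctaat

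Of the genes that adipocytes express highly, Car3 and Cyp2e1 rose, with SCs CTRL under 1 RPKM. Car3, a carbonic anhydrase of fat and muscle, had 16 and 25.1 RPKM in SCs DT, against 0.377 and 0.855 RPKM in SCs CTRL (difference 3.72, SE 0.43, adjusted p = 0.0216). Cyp2e1, a cytochrome of lipid oxidation, had 9.4 and 32.2 RPKM in SCs DT, against 0.708 and 0.873 RPKM in SCs CTRL (difference 3.38, SE 0.48, adjusted p = 0.0426). In the α7Sca1 libraries Car3 had 2025 and 844 RPKM, Cyp2e1 had 1417 and 1324 RPKM, and Cfd had 7389 RPKM in each, the highest value of the table. The libraries share one distribution of values, so the equal values of Cfd mark the top rank in both and not a measured agreement. Cidec, a lipid droplet protein, and the adipokine Retn had the same profile without passing. Cidec had 2.09 and 8.0 RPKM in SCs DT, against 0.123 and 0.228 RPKM in SCs CTRL (difference 2.17, SE 0.45, adjusted p = 0.12), and 445 and 534 RPKM in α7Sca1 cells. Retn had 1.49 and 4.9 RPKM in SCs DT, against 0.0756 and 0.119 RPKM in SCs CTRL (difference 1.81, SE 0.37, adjusted p = 0.119), and 311 and 319 RPKM in α7Sca1 cells. In each of these SC DT replicate 2 had more RPKM than SC DT replicate 1. Whether α7Sca1 cells within the SC gate contributed to these values was not tested. The 29 adipogenic transcription factors had a median of 0.08 (0.14 without SC CTRL replicate 1), with 0 past the test. Pparg, the master factor of fat cells, had 0.887 and 1.08 RPKM in SCs DT, against 0.648 and 0.458 RPKM in SCs CTRL (adjusted p = 0.644). The groups of Pparg did not overlap. Over 52 genes of lipid storage 0 passed, 24 were higher and 9 lower without overlap, and the median was 0.12, a value that became 0.35 when SC CTRL replicate 1 was left out, 0.34 when SC DT replicate 1 was and 0.05 when SC DT replicate 2 was. Fabp4, the fatty acid carrier of fat cells, had 144 and 214 RPKM in SCs DT, against 90.8 and 66.9 RPKM in SCs CTRL (difference 1.16, SE 0.31, adjusted p = 0.225). Adipoq, an adipokine that missed the threshold, had 5.82 and 23.9 RPKM in SCs DT, against 0.184 and 0.329 RPKM in SCs CTRL (difference 3.38, SE 0.53, adjusted p = 0.0566). Both were higher in each SC DT library and highest in SC DT replicate 2. The list of 14 adipokines, which holds Adipoq, Retn and Cfd, was mixed, with a median of 0.30, or 0.01 without SC CTRL replicate 2. Retnla, Dpt and Gpx3 of this list were lower without overlap, and Retnla fell. Rbp4, Angptl4, Rarres2, Sfrp5 and Metrnl overlapped. Fabp3, the fatty acid carrier of muscle, had 8.76 and 10.7 RPKM in SCs DT, against 3.16 and 2.83 RPKM in SCs CTRL (difference 1.42, SE 0.24, adjusted p = 0.0685), and 2.52 and 1.39 RPKM in α7Sca1 cells. Pnpla2, the lipase that opens lipid droplets, had 47.2 and 73.5 RPKM in SCs DT, against 25.2 and 29.2 RPKM in SCs CTRL (adjusted p = 0.363). The 26 detoxification enzymes of fat, Car3 and Cyp2e1 among them, had a median of 0.40, or 0.73 without SC DT replicate 1. Aldh1a1, the retinaldehyde dehydrogenase, had 1.96 and 3.47 RPKM in SCs DT, against 7.43 and 4.86 RPKM in SCs CTRL (adjusted p = 0.294).

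Antigen presentation through MHC class II held 4 genes that fell. Cd74, the invariant chain, had 15.1 and 15.2 RPKM in SCs DT, against 216 and 119 RPKM in SCs CTRL (difference -3.32, SE 0.30, adjusted p = 0.0089). H2-Ab1 had 6.31 and 7.12 RPKM in SCs DT, against 125 and 67.7 RPKM in SCs CTRL (difference -3.60, SE 0.41, adjusted p = 0.0198). H2-Aa had 2.65 and 2.22 RPKM in SCs DT, against 37.8 and 20.9 RPKM in SCs CTRL (difference -3.09, SE 0.30, adjusted p = 0.0089). H2-Aa and H2-Ab1 are the chains of one class II molecule, and H2-Eb1 is a chain of the other. H2-Eb1 had 4.39 and 3.65 RPKM in SCs DT, against 72.3 and 39.8 RPKM in SCs CTRL (difference -3.45, SE 0.32, adjusted p = 0.0089). In all 4 the SC DT libraries were near each other, whereas SC CTRL replicate 1 lay well above SC CTRL replicate 2. The list held 15 genes. Without overlap 10 were lower and 0 higher, and the median was -0.79, a value that became -0.31 when SC DT replicate 1 was left out, -0.47 when SC CTRL replicate 1 was and -1.21 when SC DT replicate 2 was. H2-DMa, which loads the peptide, had 2.19 and 1.71 RPKM in SCs DT, against 7.45 and 5.44 RPKM in SCs CTRL (difference -1.33, SE 0.22, adjusted p = 0.0692). Ciita, the regulator of the family, did not reach 0.25 RPKM.

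Class II promoters share a Y box, the letters CCAAT, searched on either strand. It was in 7 of 11 windows of 10 matched genes (63.6%) and in 37.4% of all windows. The promoters of H2-Aa and H2-Eb1, which both fell, are shown with the box in capitals.
H2-Aa (chr17:34287824-34287973, minus strand): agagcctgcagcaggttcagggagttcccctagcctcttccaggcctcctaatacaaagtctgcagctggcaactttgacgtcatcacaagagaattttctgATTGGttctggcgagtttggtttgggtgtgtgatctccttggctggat
H2-Eb1 (chr17:34305717-34305866, plus strand): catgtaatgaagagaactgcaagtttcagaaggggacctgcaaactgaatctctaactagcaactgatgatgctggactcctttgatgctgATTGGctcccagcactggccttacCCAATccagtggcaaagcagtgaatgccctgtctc
The box occurred once in H2-Aa, 48 bases before the start, and at 2 places in H2-Eb1, the first at 59 bases.

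Macrophage genes were lower in part. Of 53 genes 1 fell, 27 were lower and 1 was higher without overlap, and the median was -0.60, with -0.25 without SC DT replicate 1 and -0.35 without SC CTRL replicate 1. Mrc1, the mannose receptor of alternatively activated MΦs, had 0.74 and 0.812 RPKM in SCs DT, against 3.49 and 2.54 RPKM in SCs CTRL (difference -1.17, SE 0.17, adjusted p = 0.0423). Retnla, a secreted product of the same state, fell as well (0.505 and 1.62 RPKM in SCs DT, against 20.7 and 15.6 RPKM in SCs CTRL, difference -3.26, SE 0.29, adjusted p = 0.0089). Fcrls, Clec4b1 and Cd209a, receptors of MΦs and dendritic cells that were on no list, fell too. Fcrls had 0.103 and 0.0697 RPKM in SCs DT, against 5.27 and 4.27 RPKM in SCs CTRL (difference -2.40, SE 0.15, adjusted p = 0.00382). Clec4b1 had 0.0305 and 0 RPKM in SCs DT, against 1.36 and 1.21 RPKM in SCs CTRL (difference -1.17, SE 0.12, adjusted p = 0.0131). Cd209a had 0.0654 and 0.0743 RPKM in SCs DT, against 0.961 and 0.824 RPKM in SCs CTRL (difference -0.82, SE 0.10, adjusted p = 0.026). The general markers were less uniform. Csf1r had 1.29 and 3.29 RPKM in SCs DT, against 8.92 and 5.19 RPKM in SCs CTRL (adjusted p = 0.207). Lyz2, the lysozyme, had 138 and 253 RPKM in SCs DT, against 622 and 309 RPKM in SCs CTRL (adjusted p = 0.387). Emr1, which encodes F4/80, had 1.91 and 3.5 RPKM in SCs DT, against 8.96 and 4.86 RPKM in SCs CTRL (adjusted p = 0.264). For all 3 SC DT replicate 2 was above SC DT replicate 1. Cd68, a lysosomal protein of MΦs, overlapped with 22.5 and 45.7 RPKM in SCs DT, against 48.2 and 28.9 RPKM in SCs CTRL. Itgam, whose promoter drives the transgene, overlapped with 0.831 and 1.73 RPKM in SCs DT, against 1.93 and 1.37 RPKM in SCs CTRL.

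S100a8, a subunit of the neutrophil protein calprotectin, rose (19.4 and 24.8 RPKM in SCs DT, against 4.98 and 3.35 RPKM in SCs CTRL, difference 2.17, SE 0.24, adjusted p = 0.0152). Its partner S100a9 had 10.8 and 17.1 RPKM in SCs DT, against 4.0 and 2.75 RPKM in SCs CTRL (difference 1.75, SE 0.28, adjusted p = 0.0618). Of 15 neutrophil genes measured, 1 rose, 0 fell, 10 were higher and 1 was lower without overlap, and the granule genes Camp and Ngp stayed under 1 RPKM. The summed RPKM of the list was 39.95 and 59.67 in SCs DT and 17.47 and 14.82 in SCs CTRL. Transcripts of red cells were lower without overlap in 4 of 5 cases, and none passed. Hbb-bs had 15.8 and 11.3 RPKM in SCs DT, against 111 and 64.5 RPKM in SCs CTRL (difference -2.58, SE 0.67, adjusted p = 0.215). Hba-a2 had 5.71 and 3.29 RPKM in SCs DT, against 34.5 and 21.2 RPKM in SCs CTRL (difference -2.39, SE 0.60, adjusted p = 0.199). Hbb-b1 had 2.61 and 1.12 RPKM in SCs DT, against 16.3 and 10.5 RPKM in SCs CTRL (difference -2.35, SE 0.39, adjusted p = 0.0685). The globins have near-identical copies, so the division of reads among them is uncertain. With each SC library left out, 4 of the 5 genes were again lower without overlap.

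The enzymes of cholesterol synthesis were lower in SCs DT. Of 25 genes of the pathway and its control 0 passed, 20 were lower and 0 higher without overlap, and the median was -0.61, between -0.64 and -0.58 whichever SC library was left out. Sqle, which makes squalene epoxide, had 5.15 and 3.67 RPKM in SCs DT, against 8.51 and 8.89 RPKM in SCs CTRL (difference -0.86, SE 0.21, adjusted p = 0.188). Fdps, of farnesyl diphosphate synthesis, had 16.6 and 13.1 RPKM in SCs DT, against 28.9 and 26.7 RPKM in SCs CTRL (difference -0.87, SE 0.23, adjusted p = 0.23). Cyp51, the lanosterol demethylase, had 3.77 and 2.56 RPKM in SCs DT, against 7.68 and 7.71 RPKM in SCs CTRL (difference -1.08, SE 0.32, adjusted p = 0.277). In each the SC CTRL libraries lay close together. Msmo1, the sterol oxidase after it, had 3.32 and 2.68 RPKM in SCs DT, against 5.67 and 5.66 RPKM in SCs CTRL (adjusted p = 0.207). Msmo1 was also lower in both SC DT libraries. Insig1, which retains the SREBP complex, had 5.99 and 5.31 RPKM in SCs DT, against 15.7 and 11.4 RPKM in SCs CTRL (difference -1.11, SE 0.40, adjusted p = 0.383). Hmgcs1 is listed at 0 or nearly so in all libraries. Fasn, of fatty acid synthesis, had 3.12 and 3.42 RPKM in SCs DT, against 3.67 and 3.78 RPKM in SCs CTRL (adjusted p = 0.952).

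**Figure D4:**
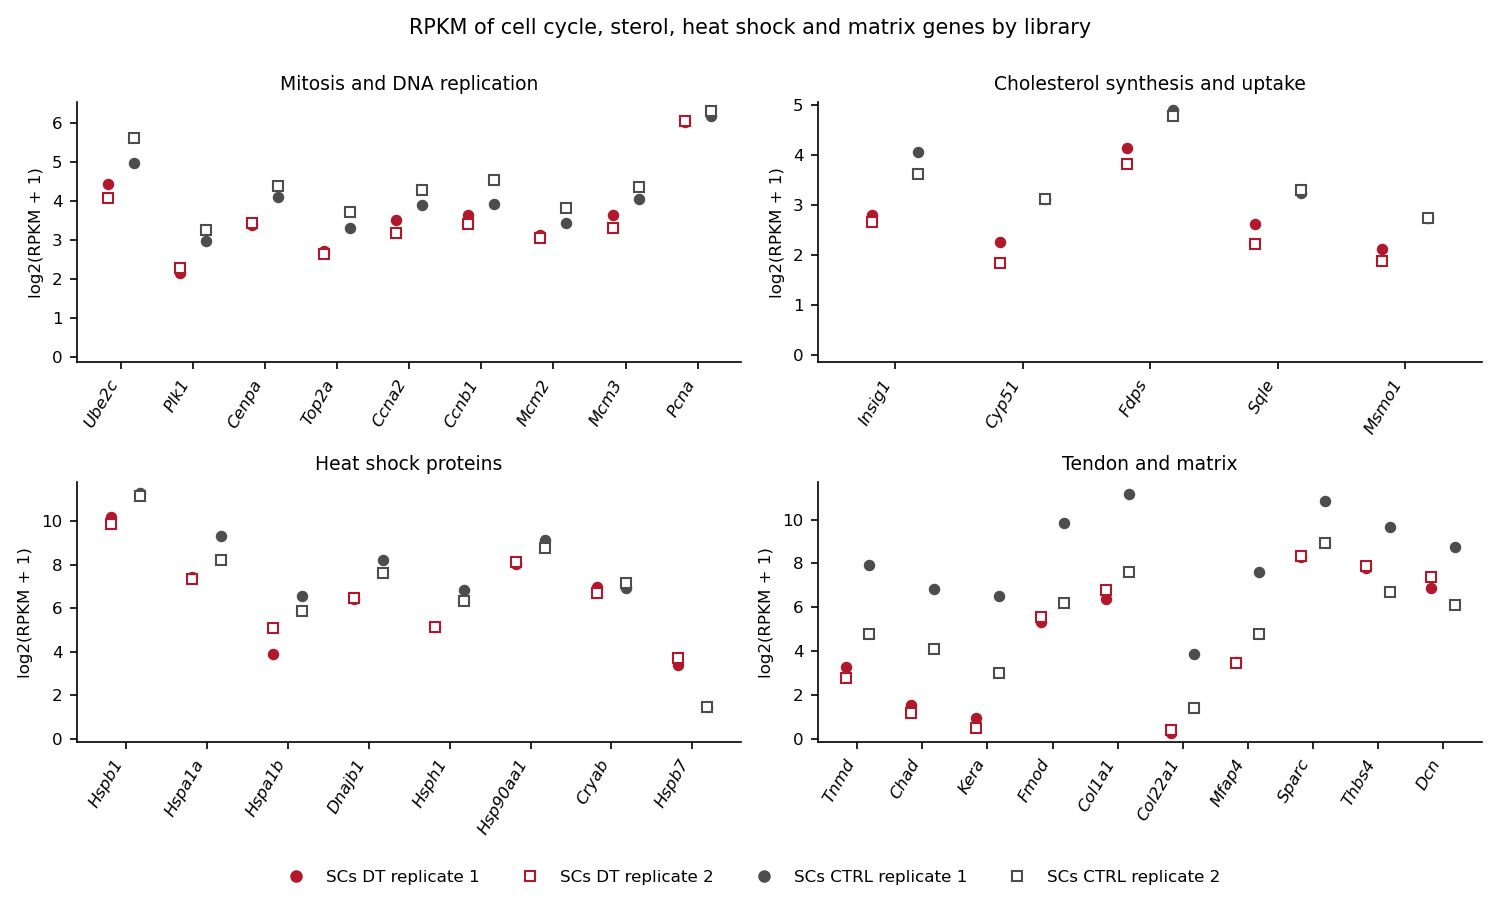
Log2(RPKM + 1) of cell cycle, sterol, heat shock and matrix genes in the 4 SC libraries, with SCs DT in red on the left of each gene and SCs CTRL in grey on the right; circles are replicate 1 and squares replicate 2, and a point can lie under another. Mitosis and sterol genes are lower in both SC DT libraries, and for tendon and matrix genes SC CTRL replicate 1 lies far above the other 3 libraries.

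Inducible heat shock genes were also lower. Hspb1, a small heat shock protein and one of the most abundant transcripts, had 1173 and 944 RPKM in SCs DT, against 2505 and 2287 RPKM in SCs CTRL (difference -1.18, SE 0.28, adjusted p = 0.183). Hsph1 had 33.9 and 33.9 RPKM in SCs DT, against 113 and 78.6 RPKM in SCs CTRL (difference -1.45, SE 0.31, adjusted p = 0.132). Dnajb1 had 84.7 and 87.5 RPKM in SCs DT, against 299 and 194 RPKM in SCs CTRL (difference -1.48, SE 0.33, adjusted p = 0.147). Hsph1 and Dnajb1 assist Hsp70. Hsp90aa1 had 264 and 274 RPKM in SCs DT, against 557 and 438 RPKM in SCs CTRL (adjusted p = 0.269). The groups did not overlap for these genes. Hspa1a, which shares nearly all of its sequence with Hspa1b, had 169 and 161 RPKM in SCs DT, against 641 and 293 RPKM in SCs CTRL (adjusted p = 0.244). Of 29 heat shock genes 17 were lower and 6 higher without overlap, the median was -0.29, and the 1 that passed rose. Hspb7, a small heat shock protein of heart and muscle, had 9.54 and 12.3 RPKM in SCs DT, against 1.76 and 1.79 RPKM in SCs CTRL (difference 2.09, SE 0.20, adjusted p = 0.0089). Hspa2, Dnajb5, Hspb2, Hspb6 and Hspb8 were the others that were higher without overlap. The immediate early genes, which tissue digestion can induce, had a median of -0.05 that turned to 0.24 without SC CTRL replicate 1, and Fos had 236 and 284 RPKM in SCs DT, against 441 and 204 RPKM in SCs CTRL (adjusted p = 0.952). Among 38 genes of the unfolded protein and integrated stress responses 0 passed, and the chaperone Hspa5 had 534 and 773 RPKM in SCs DT, against 1006 and 1048 RPKM in SCs CTRL (adjusted p = 0.555). The 82 cytosolic ribosomal proteins had a median of 0.00, with 69 overlapping between groups, and medians of -0.18 without SC CTRL replicate 1 and 0.16 without SC CTRL replicate 2.

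Tendon and matrix genes were lower in SCs DT with most of the gap set by SC CTRL replicate 1. Tnmd, the tendon membrane protein tenomodulin, had 8.68 and 5.77 RPKM in SCs DT, against 242 and 26.8 RPKM in SCs CTRL (difference -3.34, SE 0.91, adjusted p = 0.237). Chad, a leucine-rich cartilage protein, had 1.95 and 1.3 RPKM in SCs DT, against 112 and 16.1 RPKM in SCs CTRL (difference -4.07, SE 0.78, adjusted p = 0.0992). Fmod, the proteoglycan fibromodulin, had 39.5 and 46.3 RPKM in SCs DT, against 913 and 72.9 RPKM in SCs CTRL (difference -2.57, SE 1.05, adjusted p = 0.456). In SC CTRL replicate 1 each of these was more than 6 times as high as in SC CTRL replicate 2. Col1a1 had 80.9 and 109 RPKM in SCs DT, against 2287 and 192 RPKM in SCs CTRL (difference -2.81, SE 1.00, adjusted p = 0.383). Of 23 tendon and proteoglycan genes 0 passed and 12 were lower against 2 higher without overlap, with a median of -0.95. Without SC CTRL replicate 1 the median was -0.18, with 12 lower and 9 higher, and without SC CTRL replicate 2 it was -1.69. Of 35 collagens 0 passed, 18 were lower and 2 higher without overlap, and the median was -0.53, or -0.21 without SC CTRL replicate 1 and -0.82 without SC CTRL replicate 2. Col22a1, a collagen of the junction between muscle and tendon, had 0.213 and 0.309 RPKM in SCs DT, against 13.7 and 1.64 RPKM in SCs CTRL (adjusted p = 0.269). Col15a1, of the basement membrane zone of muscle, had 2.51 and 1.07 RPKM in SCs DT, against 5.67 and 3.6 RPKM in SCs CTRL (adjusted p = 0.312). In the list of 41 FAP and fibroblast genes the median of -0.28 turned to 0.16 without SC CTRL replicate 1 and was -0.71 without SC CTRL replicate 2. Pdgfra, the receptor that marks FAPs, had 0.665 and 1.65 RPKM in SCs DT, against 0.846 and 0.276 RPKM in SCs CTRL (adjusted p = 0.668). Ly6a, which encodes Sca1, had 51.8 and 55.2 RPKM in SCs DT, against 31 and 21.6 RPKM in SCs CTRL (adjusted p = 0.244). Dpt, a matrix protein of fibroblasts, was lower in both SC DT libraries than in either SC CTRL library, with 13.5 and 18.6 RPKM in SCs DT, against 67.6 and 56.8 RPKM in SCs CTRL (difference -1.90, SE 0.38, adjusted p = 0.113).

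Pericyte and smooth muscle genes were higher in 17 of 25 cases and lower in 0 without overlap, with a median of 0.60 and 0 past the test. Rgs5, a pericyte marker, had 153 and 192 RPKM in SCs DT, against 120.4 and 91.1 RPKM in SCs CTRL (adjusted p = 0.588). Ednra had 14 and 12 RPKM in SCs DT, against 6.1 and 6.4 RPKM in SCs CTRL (adjusted p = 0.218). Both lay higher in each SC DT library. Myh11, of smooth muscle, had 59.4 and 36.9 RPKM in SCs DT, against 37.2 and 38.4 RPKM in SCs CTRL (adjusted p = 0.862). Schwann cell genes had a median of 0.18 that turned to -0.05 without SC DT replicate 1. Sox10, the factor that defines these cells, had 5.19 and 2.64 RPKM in SCs DT, against 1.76 and 1.08 RPKM in SCs CTRL (adjusted p = 0.303). Endothelial genes had a median of 0.15 that turned to -0.08 without SC CTRL replicate 2, and Kdr and Cdh5 stayed under 5 RPKM in all 4 libraries. Other genes of the list were more abundant. Pecam1 overlapped, with 9.18 and 13.8 RPKM in SCs DT, against 11.4 and 6.59 RPKM in SCs CTRL. Esam was higher without overlap, with 30.4 and 30.9 RPKM in SCs DT, against 20.5 and 16.3 RPKM in SCs CTRL (adjusted p = 0.526 from limma). Kdr was lower without overlap.

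Among signals and receptors, 1 pair of ligand and receptor passed the test in opposite directions. Ednrb, the type B endothelin receptor (chr14:104213842-104243390 in mm9), rose (35.5 and 40.2 RPKM in SCs DT, against 12 and 11.3 RPKM in SCs CTRL, difference 1.61, SE 0.23, adjusted p = 0.0423). Edn3, one of its ligands, fell (0.723 and 0.246 RPKM in SCs DT, against 8.08 and 4.37 RPKM in SCs CTRL, difference -2.25, SE 0.27, adjusted p = 0.0239). Nrep, a neuronal and regeneration protein that was placed with the TGF-β genes, had 12.7 and 13.5 RPKM in SCs DT, against 63.6 and 49 RPKM in SCs CTRL and missed the threshold narrowly (difference -2.01, SE 0.30, adjusted p = 0.0507). Tgfb2 and Bmp4, growth factors of the TGF-β family, were lower without overlap. Tgfb2 had 9.42 and 12 RPKM in SCs DT, against 20.9 and 19.2 RPKM in SCs CTRL (adjusted p = 0.199). Bmp4 had 2.99 and 4.23 RPKM in SCs DT, against 9.71 and 6.77 RPKM in SCs CTRL (adjusted p = 0.197). Of 52 TGF-β, activin and BMP genes 0 passed, with a median of -0.13 that turned to 0.01 without SC CTRL replicate 1. Dusp6, a feedback phosphatase of the ERK pathway, had 14.4 and 16.1 RPKM in SCs DT, against 37.1 and 22.5 RPKM in SCs CTRL (adjusted p = 0.304). Igfbp5, an IGF-binding protein, had 26.8 and 14.6 RPKM in SCs DT, against 35.8 and 38.8 RPKM in SCs CTRL (adjusted p = 0.597). The Wnt, FGF and IGF lists had medians of -0.10, 0.04 and -0.09 and held no gene that passed. That of the Wnt list turned to 0.02 without SC CTRL replicate 1, and that of the FGF list became 0.00 without SC DT replicate 1 and 0.10 without SC DT replicate 2. That of the IGF list was nearest to 0 without SC DT replicate 2, at -0.01.

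Metallothioneins bind zinc and copper and rise with inflammation and glucocorticoids. Mt1 had 1131 and 1559 RPKM in SCs DT, against 687 and 478 RPKM in SCs CTRL (difference 1.21, SE 0.35, adjusted p = 0.262). Mt2 had 622 and 1173 RPKM in SCs DT, against 478 and 409 RPKM in SCs CTRL (adjusted p = 0.437). Fkbp5, a target of the glucocorticoid receptor, had 3.21 and 6.94 RPKM in SCs DT, against 0.832 and 0.807 RPKM in SCs CTRL (difference 1.67, SE 0.39, adjusted p = 0.173). Its SC CTRL libraries were both under 1 RPKM. Fth1, the ferritin heavy chain, had 2025 and 2505 RPKM in SCs DT, against 1559 and 1070.5 RPKM in SCs CTRL (adjusted p = 0.44). None of these genes passed, and none of them overlapped. Their lists did not share the increase: the median was -0.05 over 20 metallothionein and zinc genes and -0.05 over 30 iron genes. Among the zinc transporters, Slc39a7, Slc39a10 and Slc39a11 were lower without overlap, whereas Slc30a1, Slc30a9 and Slc39a14 were higher. Of 11 genes for the entry and action of the toxin 0 passed. Hbegf, the mouse homologue of the receptor, had 13.4 and 11.4 RPKM in SCs DT, against 17.2 and 10.9 RPKM in SCs CTRL (adjusted p = 0.961). Eef2, the elongation factor that the toxin inactivates, had 338 and 273 RPKM in SCs DT, against 296 and 316 RPKM in SCs CTRL (adjusted p = 0.999). Of the 62 genes that passed, 49 were on a list and 13 on none.

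Beyond those already given, the genes on no list that passed were low. Prkag3, the muscle subunit of the AMP-activated kinase, rose (4.5 and 6.06 RPKM in SCs DT, against 1.32 and 1.76 RPKM in SCs CTRL, adjusted p = 0.0498). Cplx3, a complexin, rose (2.32 and 3.18 RPKM in SCs DT, against 0.0582 and 0.065 RPKM in SCs CTRL, adjusted p = 0.0089). Abra, an actin-binding activator of striated muscle, rose (0.977 and 1.01 RPKM in SCs DT, against 0.0876 and 0.223 RPKM in SCs CTRL, adjusted p = 0.0423). Ppp1r27 (1.00), Asb11 (0.86) and Rasl10b (0.79) also rose on the log2 scale and were under 2 RPKM in every SC library. Kcne1l, a potassium channel subunit, fell (0.237 and 0.203 RPKM in SCs DT, against 1.66 and 1.28 RPKM in SCs CTRL, adjusted p = 0.0371). AF357359, a gene to which no role is given here, fell (0.916 and 0 RPKM in SCs DT, against 5.3 and 4.01 RPKM in SCs CTRL, adjusted p = 0.0443).

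Among genes of at least 10 RPKM on no list, the differences of at least 1 without overlap included those of Procr, Chil3 and Apod on the higher side and of Gal and Lpar1 on the lower side, none of which passed. Procr, the protein C receptor, had 296 and 219 RPKM in SCs DT, against 78.3 and 85.7 RPKM in SCs CTRL (difference 1.62, SE 0.32, adjusted p = 0.107). Chil3, a chitinase-like protein of MΦs, had 26 and 107 RPKM in SCs DT, against 4.38 and 3.58 RPKM in SCs CTRL (difference 3.44, SE 0.61, adjusted p = 0.0827). Apod, a lipid-binding apolipoprotein, had 100.1 and 130.2 RPKM in SCs DT, against 51.2 and 14 RPKM in SCs CTRL (adjusted p = 0.221). Of the SCs DT libraries, replicate 1 was the higher for Procr and replicate 2 for the other two. Gal, the neuropeptide galanin, had 79.3 and 40.1 RPKM in SCs DT, against 182 and 214 RPKM in SCs CTRL (difference -1.79, SE 0.55, adjusted p = 0.297). Lpar1, a receptor of lysophosphatidic acid, had 8.82 and 8.59 RPKM in SCs DT, against 31.7 and 26 RPKM in SCs CTRL (difference -1.61, SE 0.38, adjusted p = 0.176). Ptx4, Cpxm2, Fbln7, Cthrc1, Ssc5d, Angptl1 and Abi3bp were also lower, and in all 7 SC CTRL replicate 1 was at least 3 times SC CTRL replicate 2.

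**Figure D5:**
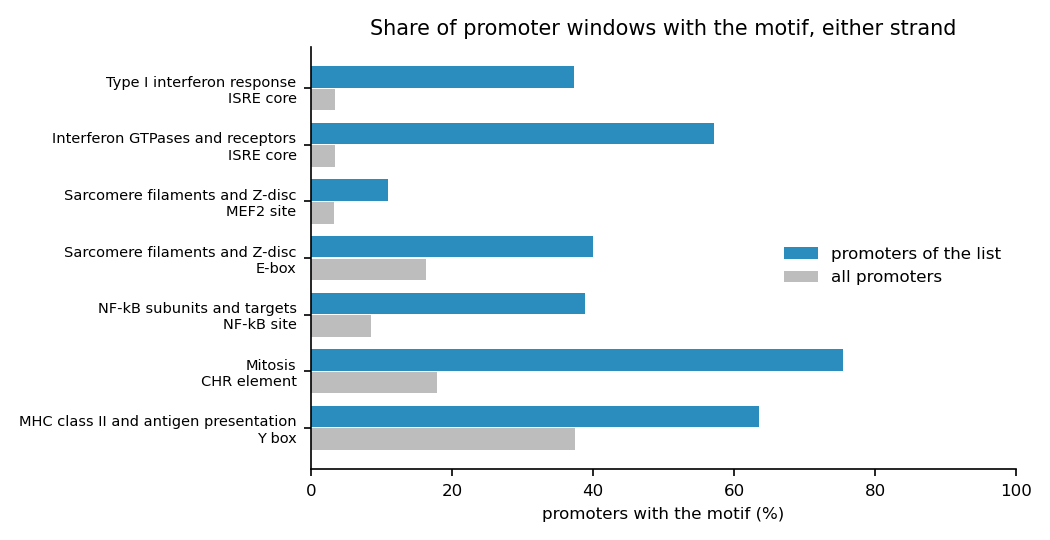
Share of RefSeq promoter windows (250 bases before to 50 after a start, GRCm38.p6) that hold a motif on either strand, for the windows of a gene list in blue and for all 32851 windows in grey. The share in the list is above that in all windows for each of the 7 pairs, with 37.3% against 3.44% for the interferon element in interferon response genes and 63.6% against 37.4% for the Y box.

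Each of the 7 pairs of a list and a motif had a higher share of windows with the motif than all windows did. The lists were written from known pathways, whose genes are partly known through these sites, and the shares do not say which sites were active in these cells.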

How the data were processed

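RNA from sorted cells was amplified with a SMART-seq2 protocol, sequenced and aligned to the mouse genome mm9 with TopHat (the notes that the submitters gave on processing list TopHat2 2.0.8). The deposited RPKM values, computed by the authors per gene, had been normalized so that the sorted values of all 6 libraries differed by at most 0.0192 RPKM. They are not counts, and depth cannot be read from them. The kit does not keep strand, so overlapping and antisense genes are not separated. A second table with the authors' own comparison (fold changes, p-values and 10 per-sample columns) was not used.

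The members, gene lists and motifs were chosen with earlier results of these data known. Values were tested as log2(RPKM + 1), which understates changes of low genes, in limma 3.58.1 (R 4.3.3) with a trended empirical Bayes fit of 3 groups in 6 libraries (3 residual and 4.29 prior degrees of freedom). The fit used 13934 genes above 0.25 RPKM in any library, p-values were Benjamini-Hochberg adjusted over all of them, and the threshold was 0.05. Every adjusted p in the text comes from this two-sided limma test, and every difference is SCs DT minus SCs CTRL on the log2(RPKM + 1) scale. The libraries of a group are separate pools of 2 mice, so the spread behind the p-values is one between pools. It was estimated over all 3 groups, the α7Sca1 libraries included, and moderated between genes. An SE can therefore be large where mainly the α7Sca1 libraries differ. Gstt1 had an SE of 0.51, with α7Sca1 libraries at 52 and 14.1 RPKM and all 4 SC libraries between 5.96 and 6.66 RPKM. The other calculations used Python 3.11.15, numpy 2.4.6, pandas 2.3.3, scipy 1.17.1 and matplotlib 3.10.9.

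The 54 lists held 1725 genes and were described by counts and medians only. Genes were named if they passed the test, if they were anchors of a list or among its 4 largest differences without overlap at a mean of at least 5 RPKM, or if they were among the 10 largest differences in each direction on no list at a mean of at least 10 RPKM. This rule selected 419 genes, of which the text gives those that describe each group best, a choice made after their values were seen. Gene coordinates are those of GENCODE on mm9 and were matched for 12252 members. Promoters were taken from RefSeq on GRCm38.p6 and matched by symbol.

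Alternatives changed the pseudocount, the filter, the scaling, the libraries and the variance trend, added a replicate block, or left out each library in turn.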

Additional observations from a re-analysis of the deposited data

How the results depend on the processing

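All 62 genes that passed the limma test had the same direction under every alternative in which they were fitted, but their number depended on the libraries and the filter. Without 1 library at a time the count ran between 0 and 21 on the higher side and between 0 and 17 on the lower side (49 and 13 with all). With the filter applied again, an alternative chosen after seeing the data, the counts were 34 and 4 without SC DT replicate 1, 0 and 0 without SC DT replicate 2, 0 and 0 without SC CTRL replicate 1, 22 and 33 without SC CTRL replicate 2, 15 and 9 without α7Sca1 replicate 1, and 12 and 7 without α7Sca1 replicate 2. At an unadjusted p under 0.05, limma gave 676 higher and 388 lower genes without SC DT replicate 2, and 406 and 446 without SC CTRL replicate 1. The 4 SC libraries alone gave 1 and 0 over the same genes, and 46 and 13 over the genes above 0.25 RPKM in them, a filter also chosen after seeing the data. A fit without the variance trend gave 28 and 7, and one without a filter 0 and 2, none of them among the 62, although 997 and 1064 genes had an unadjusted p under 0.05. The cause of these differences was not tested. Genes without overlap past 1 on the log2 scale numbered 519 and 375 with a pseudocount of 0.1 RPKM and 295 and 194 with 0.5 RPKM, against 212 and 123, since a smaller pseudocount widens the differences of low genes. Without 1 SC library they ran between 228 and 276 on the higher side and between 82 and 265 on the lower side.

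The replicate block gave 67 higher and 25 lower genes, with all 62 among them. The deviations of same-numbered libraries had a correlation of -0.131 between SCs DT and SCs CTRL, and 0.255 and 0.162 with α7Sca1 cells, so the numbers were not taken to pair the samples. The crossed pairing gave 54 and 14. The median difference had another sign in 19 of the 54 lists when 1 SC library was left out.

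Depth is unknown, and 2 libraries a group limit what the test can call.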
